A study of Drosophila melanogaster with 3 samples.

Results

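Of the 10 genes of mitotic kinases and checkpoint proteins described here, 8 had a CG12942 peak at their promoter in the authors' optimal list, and the remaining genes, Bub1 and grp, had weaker promoter peaks in the pooled list. The 10 genes were chosen by name, as polo, aurA, aurB, Incenp, BubR1, Bub3, Bub1, tum, mei-41 and grp, out of 13945 protein-coding genes on the 6 chromosome arms. The data are ChIP-seq peak lists (chromatin immunoprecipitation and sequencing) from whole Drosophila melanogaster embryos, males and females together, collected at 0 to 24 hours. The 3 biological replicates form 1 group. Every sample came from a transgenic line whose CG12942 protein carries green fluorescent protein at its C terminus, and the tag was the target of the immunoprecipitation. All cell types of the embryo were pooled, and what drives the transgene is not given in the sources used here. No untagged or otherwise different group was analysed here, so no condition is compared. The peak lists carry no read totals, so the depth of the libraries is unknown.

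Mitosis is driven by protein kinases that act at set places. Polo and Aurora A work at centrosomes and the spindle, and Aurora B works at centromeres and the midzone with Incenp, as part of the chromosomal passenger complex. The spindle assembly checkpoint, to which BubR1, Bub3 and Bub1 belong, delays anaphase until every kinetochore is attached. The DNA damage and replication checkpoint, in which the ATR kinase mei-41 acts through the Chk1 kinase grp, delays entry into mitosis. In the fly embryo the earliest nuclear cycles run on maternal products, and mei-41 and grp are known for slowing the last of these cycles.

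The peaks lay in short stretches of DNA in front of the genes, and often between a gene and a neighbour transcribed the other way. Stretches are shown here for 5 of the genes, without untranslated or coding sequence, from the RefSeq genome sequence of the same assembly (dm6), 5′ to 3′ on the strand of the named gene. A run of 21 capitals is centred on the summit, which is the base where the peak is highest, and a run of 8 capitals marks the word TATCGATA. This word is the DNA replication-related element (DRE), bound by the factor DREF and known from promoters of replication and proliferation genes. For aurA (chr3R:11962938-11963038, plus strand) and aurB (chr2L:10858231-10858331, minus strand) the 101 bases around the optimal summit are given. For Bub3 (chr3R:29675422-29675650, minus strand) and mei-41 (chrX:16391439-16391697, plus strand) all bases between the start of the gene and that of its neighbour are given, because the summit and the DRE can be seen together. For grp (chr2L:16684394-16684494, plus strand) the 101 bases lie around an intronic summit.
aurA: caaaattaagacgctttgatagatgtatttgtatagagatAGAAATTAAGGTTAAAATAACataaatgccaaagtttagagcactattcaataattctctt
aurB: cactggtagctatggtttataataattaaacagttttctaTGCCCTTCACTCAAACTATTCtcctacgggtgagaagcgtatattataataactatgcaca
Bub3: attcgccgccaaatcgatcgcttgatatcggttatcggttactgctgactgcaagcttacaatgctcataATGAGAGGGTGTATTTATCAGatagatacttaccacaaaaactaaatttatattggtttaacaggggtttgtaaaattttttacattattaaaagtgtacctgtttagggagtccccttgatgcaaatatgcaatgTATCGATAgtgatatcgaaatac
mei-41: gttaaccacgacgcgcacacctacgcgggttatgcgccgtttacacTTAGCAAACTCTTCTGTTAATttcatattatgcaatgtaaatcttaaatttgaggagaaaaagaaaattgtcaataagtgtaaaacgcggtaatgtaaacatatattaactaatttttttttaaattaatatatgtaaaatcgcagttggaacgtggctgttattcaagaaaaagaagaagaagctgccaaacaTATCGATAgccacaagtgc
grp: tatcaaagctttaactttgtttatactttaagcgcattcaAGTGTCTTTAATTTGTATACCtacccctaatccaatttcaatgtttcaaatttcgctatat

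The share of genes with a promoter peak was higher among the 10 than among all genes. A gene was counted where a summit lay within 500 bp of the transcription start site (TSS) of one of its protein-coding transcripts. In the optimal list, which holds 3844 peaks, this was so for 8 of the 10 genes, against 19.2% of all protein-coding genes. In the pooled list of 27271 peaks it was so for 10 of 10 genes, against 51.0%. The authors label the pooled list as peaks and background, so an entry in it alone is weak evidence of binding. Its −log10 q values go down to 0.0177, whereas the lowest in the optimal list is 3.40. Among the strongest 3844 peaks of each replicate it was so for 9, 8 and 8 of the 10 genes in replicates 1, 2 and 3, a mean of 8.33 ± 0.577 (SD, n = 3). The background in the same replicate peaks was 18.6%, 19.2% and 18.8% of all genes. The additional gene in replicate 1 was Bub1. The 10 genes were named with earlier results of these data known, so the counts are a description and no test was made.

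The optimal list proved to be the strongest part of the pooled list. All 3844 of its peaks were the 3844 pooled peaks with the highest signal, which is the value the authors' peak caller gave each peak. The last peak inside had a signal of 78.9, and the first outside it also had 78.9. The members' promoter signals ran from 102 to 234 inside the list, and Bub1 and grp followed outside it with 69.2 and 67.4. Bub1 and grp were thus 648 and 835 ranks past the end of the list.

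**Figure D1:**
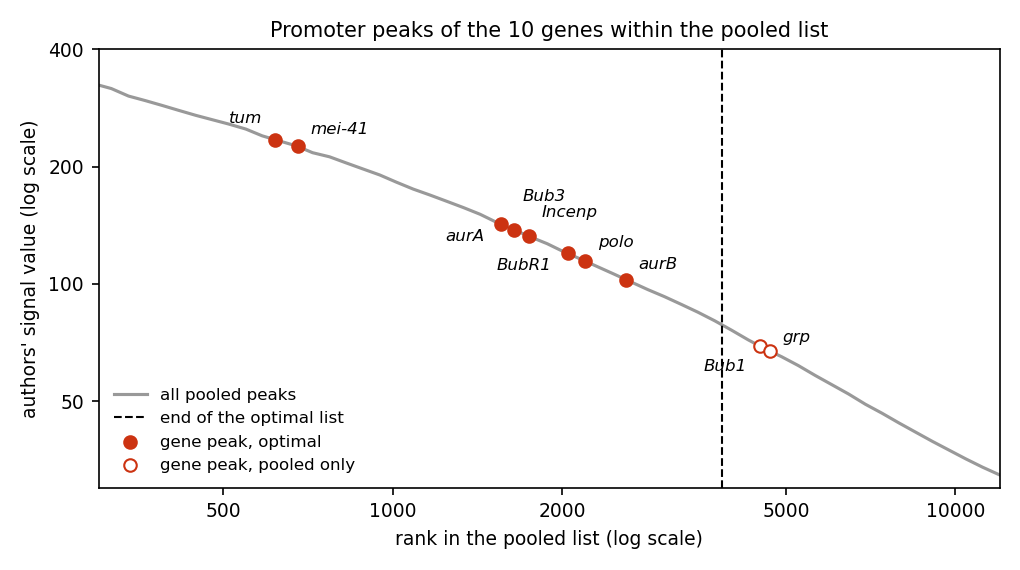
Signal value of each pooled peak (log scale) against its rank in the pooled list (log scale, 1 is strongest), with the promoter peaks of the 10 genes as circles and the end of the optimal list at rank 3844 as a dashed line. The filled circles of tum and mei-41 stand highest (234 and 225), 6 more lie between 142 and 102, and the open circles of Bub1 and grp lie just past the line.

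The kinase genes polo, aurA and aurB each had a promoter peak among the strongest 3844 of every replicate. polo (FBgn0003124; dm6 3L, 20309654 to 20313466, plus strand) encodes the Polo kinase, which acts in centrosome maturation, spindle assembly and cytokinesis. Its optimal peak (3L, 20309724 to 20310127) had a signal of 114 and a summit at 20309926. The gene has 2 annotated TSSs 393 bp apart, and the summit lay between them, 272 bp downstream of the upstream TSS and 121 bp upstream of the other. It was therefore inside the longer transcript. The peak had signals of 43.6, 43.9 and 27.3 in replicates 1, 2 and 3 and ranked 2244, 1495 and 3757. Replicate 3 placed it lowest, near the end of its strongest 3844. polo has no head-to-head neighbour, and its own TSS was the nearest to the summit.

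aurA (FBgn0000147; 3R, 11963124 to 11964826, plus strand) encodes Aurora A, needed for centrosome maturation and spindle formation. Its optimal peak (3R, 11962786 to 11963189) had a signal of 142 and a summit 136 bp upstream of the TSS. The matched peak had signals of 50.5, 48.2 and 46.4 in replicates 1, 2 and 3 and ranked 1728, 1277 and 1731, the narrowest spread of ranks among the 6 genes in the middle of the order below. The position was less fixed than the strength. Replicate 1 had a single summit 81 bp upstream, whereas replicate 2 had summits 239 and 37 bp upstream and replicate 3 had summits 212 and 12 bp upstream. The pooled summit lay between these positions. The neighbour CG3281 starts 319 bp away on the other strand, and the pooled summit was 183 bp upstream of its TSS.

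aurB (FBgn0024227; 2L, 10856797 to 10858094, minus strand) encodes Aurora B, the kinase of the passenger complex. Its optimal promoter peak (2L, 10858079 to 10858482) had a signal of 102, the lowest of the 8 genes in the optimal list, and a summit 187 bp upstream of the TSS. The signals were 41.4, 34.1 and 29.7 and the ranks 2466, 2276 and 3346 in replicates 1, 2 and 3. The matched summits lay 296, 193 and 120 bp upstream, which is a wide scatter. Weaker summits lay 393 bp upstream in replicate 2 (rank 21897) and 320 bp upstream in replicate 3 (rank 7296). Stam, which encodes an adaptor for sorting ubiquitinated membrane proteins, starts 442 bp away on the other strand, 255 bp from the summit. A weaker pooled peak, with a signal of 43.9, had its summit 390 bp upstream of aurB. A further optimal peak with a signal of 95.2 lay 111 bp past the other end of aurB. That summit was 42 bp upstream of the TSS of Dnz1, the next gene, and is that gene's promoter peak by distance.

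Incenp (FBgn0260991; 2R, 7278467 to 7281795, plus strand) encodes the scaffold subunit that binds and activates Aurora B. Its optimal peak (2R, 7278097 to 7278500) had a signal of 133 and a summit 168 bp upstream of the nearer of its 2 TSSs. The signals were 43.2, 28.7 and 56.1 and the ranks 2280, 2907 and 1291 in replicates 1, 2 and 3, so replicate 3 was highest and replicate 2 lowest. Summits lay 33, 168 and 205 bp upstream in replicates 1, 2 and 3, and replicate 2 had another, weaker summit 33 bp downstream (rank 9713). The divergent neighbour Br140, which encodes a bromodomain protein, starts 366 bp away, and the optimal summit was 198 bp upstream of it. The genes of the other passenger complex subunits, borr, Det and aust, had no optimal promoter peak (0 of 3, against 19.2% of all genes). Det alone had a pooled one (1 of 3, against 51.0% of all genes), with a signal of 59.0 and a rank of 5558. A contrast with Incenp was not tested on so few genes.

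The spindle checkpoint genes BubR1 and Bub3 had optimal promoter peaks of like strength, and Bub1 did not reach the optimal list. BubR1 (FBgn0263855; 2R, 5969099 to 5974385, minus strand) encodes a subunit of the mitotic checkpoint complex, which inhibits the anaphase promoting complex. Its optimal peak (2R, 5974318 to 5974721) had a signal of 119.9 and a summit 135 bp upstream of the TSS. Signals were 50.1, 36.9 and 36.1 and ranks 1758, 1993 and 2501 in replicates 1, 2 and 3. The summits of the replicates lay 139, 96 and 157 bp upstream. BubR1 has no head-to-head partner, and no further peak was found within 500 bp of its TSS in the pooled list or in any replicate.

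Bub3 (FBgn0025457; 3R, 29674007 to 29675421, minus strand) encodes the partner protein that brings BubR1 and Bub1 to kinetochores. Its optimal peak (3R, 29675368 to 29675771) had a signal of 138, and the matched peaks had signals of 44.6, 34.7 and 55.6 and ranks of 2145, 2218 and 1306 in replicates 1, 2 and 3. The summit lay 149 bp upstream of Bub3 and 81 bp upstream of Cap-D2, a condensin subunit gene that starts 230 bp away on the other strand. It was thus nearer to Cap-D2. The replicates placed the summit 152, 131 and 141 bp upstream of Bub3, with a mean of 141 ± 10.5 bp (SD, n = 3).

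Bub1 (FBgn0031696; 2L, 5278865 to 5283283, plus strand) encodes a kinetochore kinase of the checkpoint. Its strongest pooled peak within 500 bp (2L, 5278322 to 5278725) ranked 4492 with a signal of 69.2. The summit was 341 bp upstream of Bub1 but 24 bp downstream of the TSS of Nin, the gene of the centrosomal protein Ninein, which starts 317 bp away on the other strand. The matched peak ranked 3637, 10301 and 5137 in replicates 1, 2 and 3, with signals of 33.2, 13.4 and 21.3. Replicate 1 alone placed it among its strongest 3844 peaks, and the rank of replicate 2 was far beyond the other two. In replicate 2 a summit 28 bp upstream of Bub1 was the stronger one, with a signal of 15.1 and a rank of 8137. A weaker pooled peak, with a signal of 28.6 and a −log10 q value of only 0.384, had its summit 1 bp from a Bub1 TSS.

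tum (FBgn0086356; 2R, 13856150 to 13858689, minus strand) encodes Tumbleweed, a subunit of centralspindlin, which organises the central spindle for cytokinesis. It had the strongest promoter peak of the 10 genes (2R, 13858654 to 13858836, signal 234), with a summit 66 bp upstream of the TSS. The peak had signals of 75.3, 66.2 and 85.7 and ranks of 797, 701 and 573 in replicates 1, 2 and 3, and its summits lay 76, 78 and 58 bp upstream. A second optimal peak (2R, 13858752 to 13859155, signal 165) had its summit 199 bp away from the first. It lay 2 bp downstream of the TSS of Uba3, the gene of a NEDD8-activating enzyme subunit, which starts 263 bp from tum on the other strand. Each replicate also had this second summit, with signals of 45.4, 47.2 and 71.5 and ranks of 2085, 1323 and 808 in replicates 1, 2 and 3. The tum side was the stronger one in each of the 3 replicates. The intervals of both tum peaks overlap. Some further summits at polo, aurA, aurB, Incenp, mei-41 and grp stood at a like distance from a stronger summit. Why this spacing recurred was not tested.

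mei-41 (FBgn0004367; X, 16391698 to 16399850, plus strand) encodes the fly ATR kinase, which senses stalled replication and damaged DNA. Its optimal peak (X, 16391385 to 16391619) had a signal of 225. The signals were 68.7, 69.3 and 88.2 and the ranks 955, 639 and 537 in replicates 1, 2 and 3, all of them within the strongest 1000 of their list. The summit lay 203 bp upstream of mei-41 and 57 bp upstream of TH1, which encodes a subunit of the negative elongation factor NELF and starts 260 bp away on the other strand. As at Bub3, it was nearer to the partner. The matched replicate summits lay 180, 189 and 191 bp upstream of mei-41, the least scattered matched summits of the 10 genes, with a mean of 187 ± 5.86 bp (SD, n = 3). Replicate 3 had a further summit 17 bp downstream of the TSS, with a signal of 32.6 and a rank of 2931, which places it among the strongest 3844 of that replicate and close to the DRE.

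grp (FBgn0261278; 2L, 16680054 to 16699926, plus strand) encodes Grapes, the fly Chk1 kinase, which acts downstream of mei-41. It has 3 annotated TSSs, at 16680054, 16685390 and 16695524, and the first is shared with squ. No optimal summit lay within 500 bp of any of them. The strongest pooled promoter peak (2L, 16684885 to 16685288, signal 67.4, rank 4679) had its summit 303 bp upstream of the middle TSS. Matched peaks had signals of 23.4, 22.9 and 23.5 and ranks of 6274, 4043 and 4541 in replicates 1, 2 and 3, outside the strongest 3844 in each. An optimal peak was found in the same intron (2L, 16684242 to 16684645, signal 125), 946 bp upstream of the middle TSS of grp. It lay 436 bp upstream of CG31807, a gene nested in grp on the other strand, and so counts as a promoter peak of CG31807. Its signals were 49.4, 24.6 and 48.8 and its ranks 1815, 3635 and 1612 in replicates 1, 2 and 3. With a window of 1000 bp this peak brought grp in, and 9 of the 10 genes then had an optimal peak, against 21.8% of all genes.

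**Figure D2:**
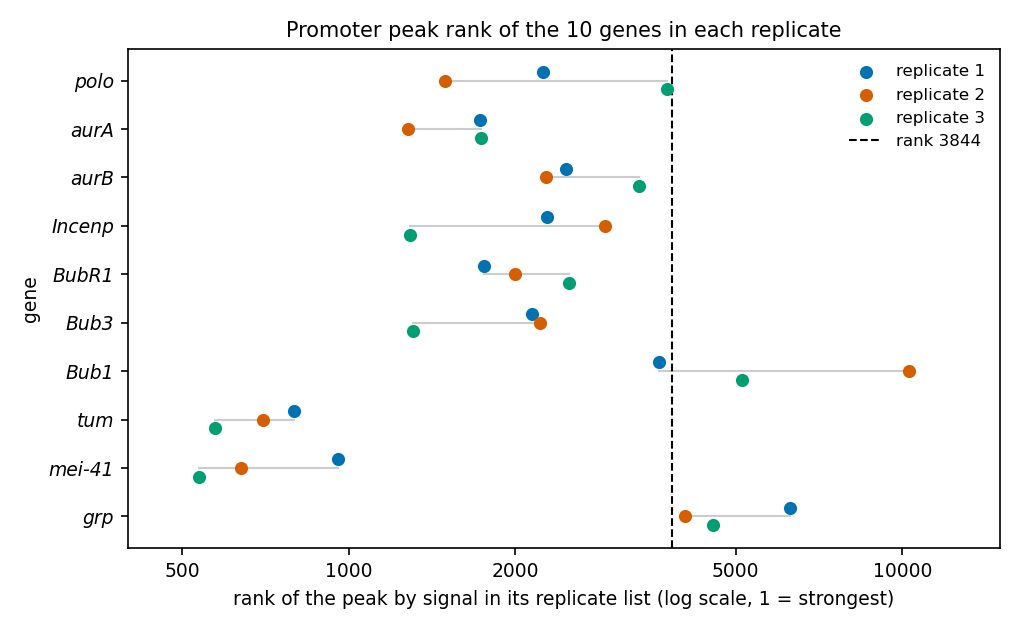
Rank of the promoter peak of each gene by signal within the list of each replicate (log scale, 1 is strongest), with the 3 replicates as coloured points and rank 3844 as a dashed line. The points of tum and mei-41 lie below rank 1000 in every replicate, those of 6 genes lie between 1277 and 3757, and those of grp lie beyond the line.

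Ordered by mean rank, the genes fell into a strong pair, a middle group and a weak pair. tum and mei-41 had mean ranks of 690 ± 112 and 710 ± 218 (SD, n = 3 replicates), which did not differ beyond their spread. Next came aurA at 1579 ± 261, and its best rank of 1277 was beyond the worst rank of mei-41, 955. Bub3 (1890 ± 507), BubR1 (2084 ± 380), Incenp (2159 ± 815), polo (2499 ± 1152) and aurB (2696 ± 571) followed. The ranges of neighbours in this order overlapped, whereas aurA lay ahead of BubR1, polo and aurB in the ranks of every replicate. grp (4953 ± 1171) and Bub1 (6358 ± 3496) came last and overlapped each other. The replicate ranks of grp lay beyond those of all 8 genes in the optimal list, whereas those of Bub1 overlapped those of polo.

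The peaks of the 8 genes were of ordinary strength for promoter peaks. Their median signal was 135, against 143 for the strongest promoter peak of each of the 2674 genes with one. tum was stronger than 79.7% of the 2008 optimal peaks at promoters, mei-41 than 77.9% and aurB than 28.3%. In the replicates, all 24 matched peaks of these 8 genes (8 genes in 3 replicates) were among the strongest 3844 of their list, with ranks from 537 to 3757. High replicate ranks are partly built in, because the optimal list was made from these replicate lists. Of 19 further mitotic and checkpoint genes with an optimal promoter peak, described below, 10 had this in all 3 replicates. With both others required and replicate 1, 2 or 3 left out, all genes stood at 15.5%, 14.5% and 14.5%. Among the strongest 1922 optimal peaks, 5 of the 10 genes kept a promoter peak, namely aurA, Incenp, Bub3, tum and mei-41, against 11.4% of all genes.

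All 8 optimal summits lay upstream of the nearest TSS of the gene, from 66 to 203 bp away, and that of polo was also inside its longer transcript. The median was 142.5 bp upstream, against 132.5 bp for the strongest promoter summit of all 2674 genes, of which 90.7% lay upstream. Replicate summits deviated from the optimal summit by 0 to 135 bp, and by at most 50 bp in 17 of 24 cases. The widest deviations were at Incenp (135 bp, replicate 1), aurB (109 bp, replicate 1) and aurA (103 bp, replicate 2).

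**Figure D3:**
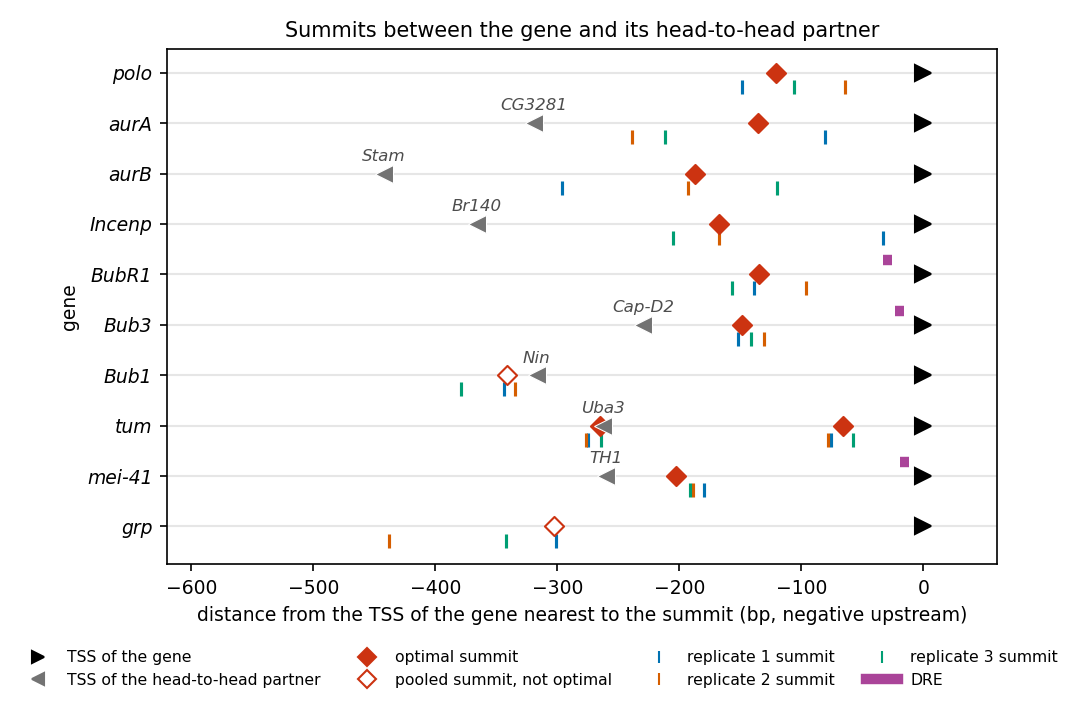
Position of summits along each promoter, in bp from the TSS of the gene (black arrowhead at 0, negative upstream), with the TSS of the head-to-head partner as a grey arrowhead, optimal and pooled summits as diamonds, replicate summits as coloured ticks and the DRE as a purple bar. The plotted summits of aurA, aurB, Incenp, Bub3 and mei-41, which leave out weaker further summits, lie between the arrowheads, tum has a summit near each arrowhead, and the DREs of BubR1, Bub3 and mei-41 lie next to the TSS, away from the plotted summits.

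Most of the genes share their promoter region with a divergent neighbour. Of the 10 genes, 7 had a TSS within 500 bp of one on the other strand transcribed away from it, against 27.4% of all protein-coding genes. These were aurA with CG3281, aurB with Stam, Incenp with Br140, Bub3 with Cap-D2, Bub1 with Nin, tum with Uba3 and mei-41 with TH1. An optimal promoter peak was found at 6 of these 7 genes, against 40.6% of all head-to-head genes, and at 2 of the 3 others, polo and BubR1, against 11.1% of all other genes. Of the 7 strongest summits, 4 were nearer to the listed gene (aurA, aurB, Incenp and tum) and 3 nearer to the partner (Bub3, Bub1 and mei-41). When a summit was counted only for the gene with the nearest TSS (a choice made after seeing the data), 6 of the 10 genes kept an optimal peak and Bub3 and mei-41 did not, against 13.8% of all genes. Which gene of a pair a peak acts on cannot be told from its position.

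Known promoter words stood at the summits themselves about as rarely as at all optimal promoter summits. Within 50 bp of the strongest promoter summit of each gene, 10 words were searched on both strands. The DRE was present at 0 of 10 summits, against 3.39% of the 2008 optimal promoter summits. The word CGATA, bound by the insulator protein BEAF-32, which is also part of the DRE, was present at 2 (Bub3 and tum, against 23.4%). The word TTTGAA, which occurs as the CHR element in mammalian mitotic promoters, was present at 1 (polo, against 18.2%), GAGAG at 1 (Bub3, against 8.17%) and TATAAA at 2 (aurB and Bub3, against 21.3%). The E2F words TTTCCCGC and TTTGGCGC (0.349% and 0.598%), GGTCACAC, the core of core promoter Motif 1 (1.69%), and the E-boxes CACGTG and CAGCTG (1.29% and 5.13%) were present at none of the 10. The GC content of these windows ran from 24.8% to 48.5% with a median of 35.1%, against a median of 33.7% for all optimal promoter summits.

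The DRE was found at 3 of the 10 genes in a window at the TSS, which is longer than the window at the summits. Promoters with optimal summits as a whole also had it more often there, in 13.8% of TSS windows against 3.39% of summit windows. In the window from 250 bp before to 50 bp after the TSS nearest to the summit, it was present at BubR1, Bub3 and mei-41, against 7.98% of all 19253 protein-coding TSSs and 13.8% of the 3301 TSSs with an optimal summit within 500 bp. It lay from 33 to 26 bp upstream of BubR1, from 23 to 16 bp upstream of Bub3 and from 19 to 12 bp upstream of mei-41. Its centre was 105, 129 and 187 bp from the summit at BubR1, Bub3 and mei-41, as the printed stretches of Bub3 and mei-41 show. The Motif 1 core GGTCACAC, a word of housekeeping promoters, lay across the TSS of aurB and of tum and was present in 6.73% of all such windows. TTTGAA was present at 5 of 10 genes (polo, aurA, Incenp, Bub1 and tum), against 38.6% of all windows, and TTTGGCGC at grp alone, against 2.38%. The remaining shares of 10 genes against all windows were 7 and 45.7% for CGATA, 5 and 42.3% for TATAAA, 3 and 33.2% for GAGAG, 1 and 17.9% for CAGCTG, 0 and 4.04% for CACGTG and 0 and 1.53% for TTTCCCGC. These matches are descriptions of the sequence, and binding of DREF or any other factor was not measured.

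Other genes of the same processes gave a lower share with an optimal promoter peak than the 10 genes, and no test of that difference was made. Of 68 further genes in 7 lists, 19 had one (27.9%), against 19.2% of all genes, and 50 had a pooled one (73.5%), against 51.0%. A head-to-head partner was annotated for 36 of the 68, whereas 27.4% of all genes have one. Over all genes, 40.6% of head-to-head genes and 11.1% of the others had an optimal promoter peak. The 27.9% is therefore not set against genes of like arrangement. Optimal summits were also kept only where matched among the strongest 3844 peaks of both remaining replicates. The count was then 11 of 68 without replicate 2 and 12 of 68 without replicate 3, against 14.5% of all genes in each case. With a summit counted only for its nearest gene, it was 12 of 68, against 13.8% of all genes. In these settings the share of the 68 genes was closer to that of all genes than 27.9% was to 19.2%. The strongest of the 19 peaks were at Cdc16, an anaphase promoting complex gene (signal 292), and at sti, which encodes the Citron kinase of cytokinesis (288). The weakest was at vih, which encodes the ubiquitin-conjugating enzyme of the anaphase promoting complex (82.8).

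None of the other spindle checkpoint genes listed had an optimal promoter peak. Of Mad1, mad2, Mps1, Zw10, rod, Zwilch and Spindly, 0 of 7 had an optimal promoter peak, against 19.2% of all genes. The list is short, and whether a count of 0 differs from that share was not tested. A pooled one was found at 4 of the 7, against 51.0% of all genes, with signals from 19.4 at Spindly to 54.2 at mad2. A head-to-head partner was annotated for 6 of these 7 genes, and 40.6% of all head-to-head genes had an optimal promoter peak. Kinetochore and centromere genes had 2 of 11 (18.2%), Cenp-C (signal 96.0) and Spc25 (118). The genes of the anaphase promoting complex and separase had 3 of 16 (18.8%), Cdc16, lmgA (127) and vih. Both shares were near the 19.2% of all genes.

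Regulators of mitotic kinases and phosphatases had 6 of 10 genes with an optimal promoter peak, against 19.2% of all genes and 40.6% of all head-to-head genes. A head-to-head partner was annotated for 6 genes of this list. The genes with an optimal promoter peak are named here with their signals. They were ball, a histone kinase gene (257), SAK, the Polo-like kinase of centriole duplication (193), gwl, which encodes the Greatwall kinase (181), mei-S332, the shugoshin gene (119.9), tws, a regulatory subunit gene of the phosphatase PP2A (104.6), and endos, which encodes the inhibitor of PP2A that Greatwall activates (97.7). At SAK, gwl and mei-S332 the summit was nearer to a neighbour, namely Cdk12, PGS1 and Vrp1, as it was to CG10646 at vih. In cytokinesis 2 of 4 genes had such a peak, sti and pbl (151).

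In the DNA damage checkpoint 6 of 17 further genes had an optimal promoter peak, against 19.2% of all genes. A head-to-head partner was annotated for 10 of the 17, and 40.6% of all head-to-head genes had such a peak. The 19.2% is therefore not a share of genes of like arrangement. They were tefu, the ATM kinase gene (195), nbs (154) of the complex that senses broken DNA ends, Claspin (139.5), the adaptor between ATR and Chk1, p53 (115.2), lok, the Chk2 kinase gene (96.0), and Rad9 (86.1), a subunit gene of the checkpoint clamp. The ATR and ATM genes mei-41 and tefu thus both had optimal peaks, and of the Chk1 and Chk2 genes lok had one and grp did not. The summits at tefu, lok and Rad9 were nearer to the neighbours Hsc70-4, barr and Uggt.

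**Figure D4:**
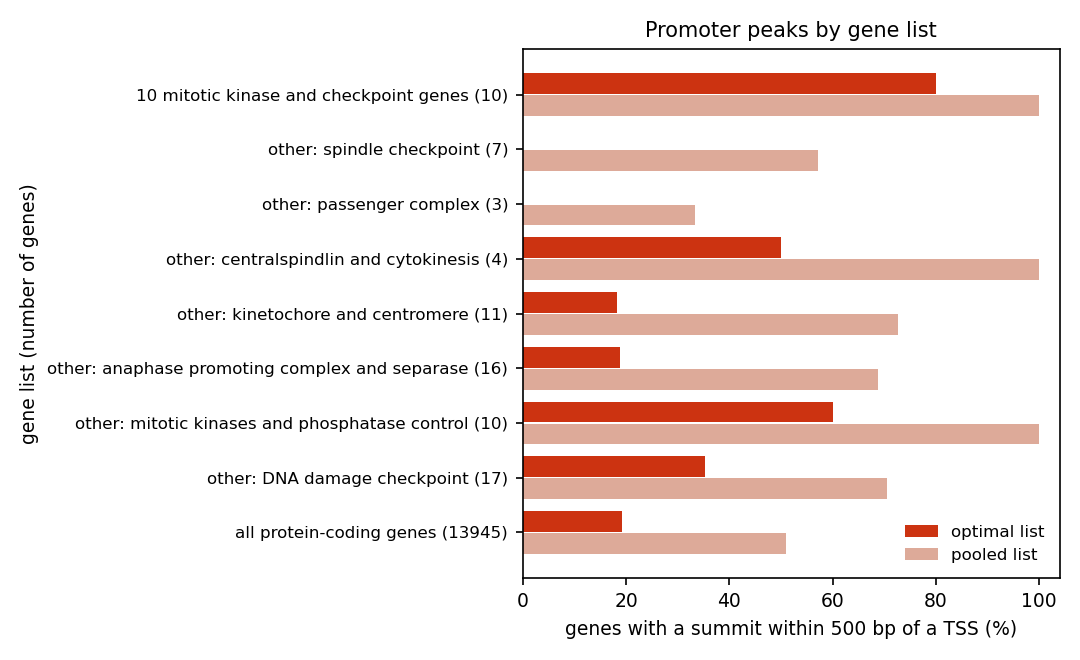
Share of genes with a summit within 500 bp of a TSS (%), in the optimal list (dark bars) and the pooled list (light bars), for the 10 genes, 7 lists of other mitotic and checkpoint genes and all protein-coding genes, with the number of genes in brackets. The 10 genes stand at 80.0% and 100%, the other lists range from 0 of 7 to 6 of 10 genes in the optimal list, and all genes stand at 19.2% and 51.0%.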

How the data were processed

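The 5 dm6 narrowPeak lists (3 replicates, pooled and optimal) were used as deposited, and the dm3 lists were not used here. Per the file listings deposited with the samples, a replicate list came from 1 alignment set against a control alignment, the pooled list from all 3 alignments, and the optimal list from these 4 lists by IDR, which keeps peaks that replicates rank alike. The sources used here name neither aligner nor peak caller. The signal value per peak and the −log10 of the q value are the authors' own. The signal was used to rank peaks within a list and to compare signal values and medians within a list. The q values tie in most optimal peaks and were not used for ranking.

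Summits were set against Ensembl release 115 (BDGP6, the dm6 assembly), with 1-based coordinates, and no peak passed the end of its arm. Summits no more than 500 bp from a protein-coding TSS were called promoter summits. A replicate peak was the strongest with a summit within 200 bp, except at the second tum summit, where the nearest was taken. The 10 genes, the 7 lists and the words were chosen with earlier results of these data known, and all 10 genes and every list gene with an optimal peak are named. Leaving out a replicate meant keeping optimal summits matched in the strongest 3844 peaks of both others. No test was made. The promoter window for words and the nearest-gene setting were added after the data were seen. The assignment was checked on simulated summits, with 200 of 200 planted genes recovered among 13945. Python 3.11.15, numpy 2.4.6, pandas 2.3.3 and matplotlib 3.10.9 were used.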

Additional observations from a re-analysis of the deposited data

How the results depend on the processing

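The count of 8 genes with an optimal promoter peak was 8 or 9 under other windows, TSS choices and peak overlap. It was 6 by nearest gene, and 5 in the stronger part of the list, where all genes fell to 1591. Leaving out a replicate could not change this count. That setting only kept optimal summits matched among the strongest peaks of both other replicates, and all 24 matched peaks of these 8 genes were there. The pooled count was 8 by nearest gene and 10 under the others run, and the matching shares of all genes were not computed. Of the 68 other pathway genes, 10 were counted in the stronger part, 11 to 15 without a replicate, and 12 by nearest gene. All genes stood at 11.4% in the stronger part, 14.5% to 15.5% without a replicate, and 13.8% by nearest gene. The mean count in the replicates was 2 in their top 1000 and 4.67 in their top 2000, against 6.68% and 11.6% of all genes. Head-to-head genes with an optimal peak numbered 1 at 250 bp, because 6 of the 7 pairs lie farther apart. Summit windows with any searched word rose to 9 of 10 at 100 bp, against 4 at 50 bp, since more bases were searched. The cause of the other changes was not tested. Of 60 alternative percentiles of single genes, 56 moved by less than 1 SD of the 3 replicates and 4 by more. Those 4 were at aurA and grp, with matching within 100 bp or to the nearest replicate peak. Leaving out 1 of 3 replicates cannot move a mean by 1 SD, so those settings could not show a change. Matching within 100 bp left 1 replicate unmatched at aurB and at Incenp. Ranking by p value was not run, since that column is constant. No paired analysis was possible because the samples form 1 group. With the depth unknown, a missing peak cannot be told from a peak below the reach of these libraries.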
